A study of Mus musculus with 10 samples.

Results

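Genes read as markers and regulators of alternative macrophage activation were followed in mouse peritoneal macrophages exposed to oxidized low-density lipoprotein (ox-LDL). They were chosen by name, as the rows for Chil3, Retnla, Mrc1, Mgl2, Clec10a, Ccl24, Pparg, Il4ra, Cd9 and F13a1, and make up 10 of the 39488 rows of the gene count table, of which 29700 were not circular RNAs. The mannose receptor Mrc1, the lectin Clec10a, the nuclear receptor Pparg and the transglutaminase F13a1 fell in ox-LDL-treated macrophages, by 4.74-fold, 14.2-fold, 5.47-fold and 8.12-fold. The cytokine receptor Il4ra and the chemokine Ccl24 rose, 5.11-fold and 5.87-fold. With each of the 10 libraries left out in turn, the call of F13a1 was lost in 9 fits and that of Ccl24 in 6. Those of Mrc1, Clec10a, Pparg and Il4ra were lost in none. Chil3 and Retnla, the secreted proteins most often used as readouts of IL-4, did not pass the test, and each owed its group means to a single library per group.

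RNA was sequenced on the BGISEQ-500 platform from peritoneal macrophages of 8-week-old C57BL/6 mice, which had been elicited with thioglycollate, an irritant broth that draws monocytes and other leukocytes into the cavity. There were 5 control libraries, labelled untreated, and 5 ox-LDL libraries, which came from cells given LPS at 100 ng/ml and then ox-LDL at 100 µg/ml for 16 hours. Every sample carries the same note on ox-LDL stimulation in its protocol, so whether the control cells also received LPS is not settled, and LPS and ox-LDL cannot be told apart in this comparison. The 5 samples per group are described as biological replicates. Nothing in the labels ties a sample to one animal or culture, so p-values measure the spread between these samples.

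Macrophages exposed to IL-4 or IL-13 signal through the IL-4 receptor alpha chain, which pairs with the common gamma chain or with the IL-13 receptor and activates the kinases JAK1 and JAK3 and the factor STAT6. STAT6, together with PPAR-gamma and other factors, switches on lectins, chitinase-like proteins, resistin-like proteins and chemokines that mark the alternatively activated state. Bacterial products such as LPS drive the classical state, which is marked by other cytokines and surface receptors.

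Promoter sequences of Retnla, Chil3 and Mrc1 are shown here. Retnla and Chil3, which did not pass the test, hold the letters that STAT dimers read. Of the genes with windows that hold none of these, Mrc1, Pparg and F13a1 fell, Il4ra rose, and Cd9 and Mgl2 were not called. Any tie between these letters and the response of a gene was not tested. The RefSeq table of promoters (build GRCm38.p6) held 8 of the 10 genes in 11 windows, as some genes have several start sites. It held no window for Clec10a or Ccl24, which were both called. Each line gives the 250 bases before the annotated start, 5′ to 3′ on the strand of the gene, for Retnla at chr16:48842359-48842608 (+ strand), Chil3 at chr3:106167565-106167814 (- strand) and Mrc1 at chr2:14229164-14229413 (+ strand). Capitals mark matches on either strand to TTCNNNNGAA (the palindrome spaced as STAT6 prefers), to TTCNNNGAA (the palindrome of other STAT factors) and to GAGGAA (the core read by the macrophage factor PU.1).
Retnla: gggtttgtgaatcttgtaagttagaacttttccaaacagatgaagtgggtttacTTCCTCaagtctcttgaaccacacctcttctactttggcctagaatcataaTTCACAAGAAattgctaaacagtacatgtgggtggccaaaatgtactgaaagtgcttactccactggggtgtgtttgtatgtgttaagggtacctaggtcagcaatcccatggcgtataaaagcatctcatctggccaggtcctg
Chil3: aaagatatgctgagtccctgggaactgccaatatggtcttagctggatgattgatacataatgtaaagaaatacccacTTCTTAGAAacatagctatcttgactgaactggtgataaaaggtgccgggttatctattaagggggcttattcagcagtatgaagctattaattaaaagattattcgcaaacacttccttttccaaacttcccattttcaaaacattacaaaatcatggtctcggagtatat
Mrc1: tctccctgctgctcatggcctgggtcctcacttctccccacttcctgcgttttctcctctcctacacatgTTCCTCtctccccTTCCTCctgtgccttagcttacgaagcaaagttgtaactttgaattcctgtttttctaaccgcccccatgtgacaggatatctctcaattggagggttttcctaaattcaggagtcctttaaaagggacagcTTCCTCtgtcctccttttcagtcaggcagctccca
Retnla held the STAT6-type match TTCACAAGAA at positions -145 to -136 from its start, and of the 8 genes only Retnla held this motif, which was found in 5.85% of all 32851 windows. Chil3 held TTCTTAGAA at -172 to -164, a spacing present in 7.02% of windows. Mrc1 held the PU.1 core 3 times on the minus strand, and the core was present in windows of 5 of the 8 genes (Mrc1, Pparg, Mgl2, F13a1 and Retnla) and in 23.3% of all windows. Counted per window, as that share is, the core was present in 5 of 11. Windows of Il4ra and Cd9 held none of these letters. The motifs do not overlap in the lines shown. A match is a run of letters, and no binding was measured.

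Libraries were of similar depth, with total estimated counts of 20094647 to 20687289 in the control group and 19257131 to 20358017 in the ox-LDL group. Normalization factors by TMM, which corrects for the make-up of a library, ran from 0.916 to 1.18 in control libraries. In the treated group the lowest was 0.593, in replicate 2, and the highest 1.19, and short genes were high in control replicates 1 and 4 and in ox-LDL replicate 2. Summed markers of macrophages (10 genes, none at 0, led by Lyz2 and Lgals3) lay between 39190 and 59720 CPM in control libraries and between 25470 and 40830 CPM after treatment. Of the 12654 genes that passed the filter on low counts, 9.4% rose and 5.35% fell at an adjusted p below 0.01 by edgeR's quasi-likelihood test with Benjamini-Hochberg adjustment, the call used throughout. By this call, 2 of the 10 macrophage markers rose (Adgre1 and Cd14) and none fell, unlike their sum. Fold changes were positive for 7 of these markers and negative for 3, with a median log2 fold change of 0.49. Among classical activation markers, 14 of 16 rose and none fell, with a median log2 fold change of 5.75, including the formyl peptide receptor Fpr2 (7.26), the ectoenzyme Cd38 (5.10) and the costimulatory receptor Cd40 (5.07). The cytokine Il6 rose from 0 to 0.130 CPM in control libraries, at most 3 counts in each, to 1.74 to 11.8 CPM.

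Of the 10 genes, 9 passed the filter, and Mgl2 was too low to be tested. In all, 6 were called, 2 higher and 4 lower, against 14.7% of all genes tested in either direction. The same 6 also had an absolute log2 fold change above 2, as did 4.78% of all genes tested in the higher and 1.93% in the lower direction. Cd9, Chil3 and Retnla did not pass. The median log2 fold change over the 9 genes was -0.89, beside 0.10 over all genes tested. In 7 of the 10 genes the control and ox-LDL libraries did not overlap, 5 of them lower and 2 higher, against 20.7% of the genes tested (9.11% lower and 11.6% higher). For each of the 7, the exact permutation test over libraries (two-sided) gave p = 0.00794, the smallest value that 5 libraries against 5 can give. In bulk RNA, fewer cells that carry a transcript and less of it per cell cannot be told apart.

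**Figure D1:**
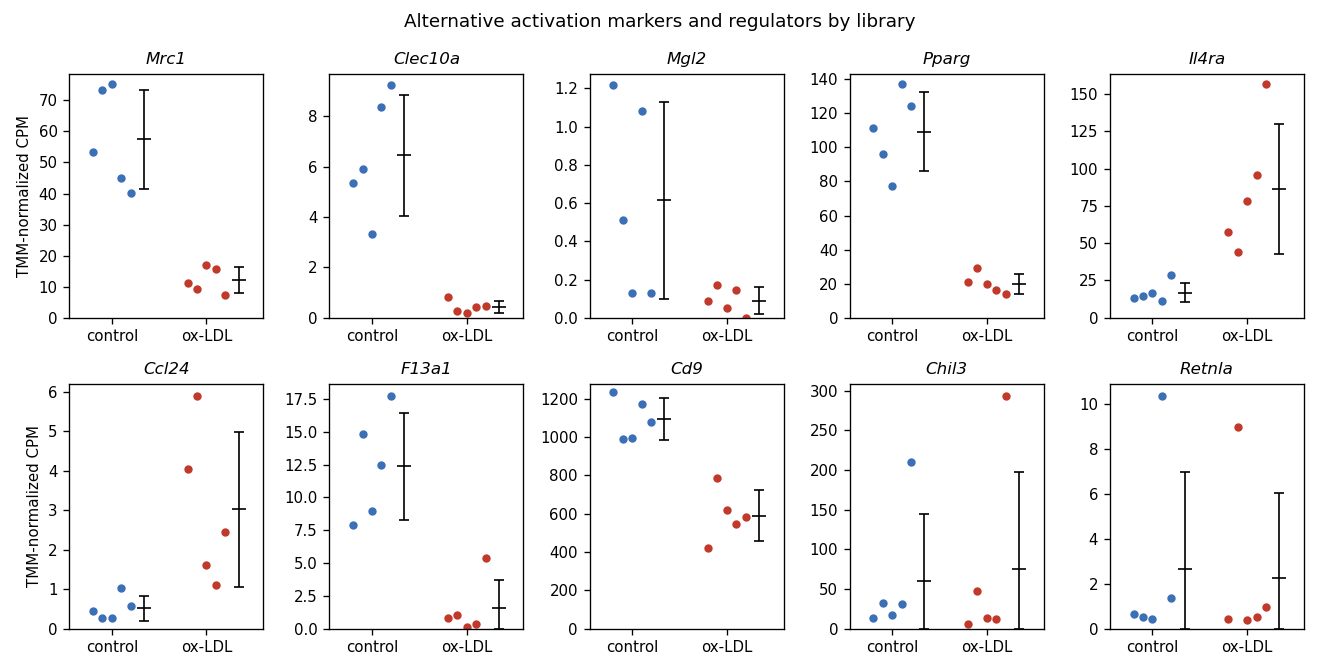
TMM-normalized CPM (linear axes starting at 0, a separate scale per gene) of the 10 genes in each control (blue) and ox-LDL (red) library, in order of replicate number. The black dash and bars give the mean and SD of 5 libraries, cut at 0 where the SD exceeds the mean. Mrc1, Clec10a, Pparg, F13a1 and Cd9 sit lower in every ox-LDL library and Il4ra and Ccl24 higher, whereas single libraries stand apart for Chil3 and Retnla.

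The entry point of the pathway was examined first. Il4ra (chr7:132695785-132722986, + strand, mm9), the alpha chain of the IL-4 receptor, had normalized levels of 13.5, 14.7, 16.4, 11.4 and 28.4 CPM in control replicates 1 to 5 and of 57.5, 43.8, 78.1, 95.7 and 156 CPM in ox-LDL replicates 1 to 5. Every ox-LDL library lay above every control library, and replicate 5 was highest in both groups. The mean was 16.9 ± 6.67 CPM (SD, n = 5) in control libraries and 86.3 ± 43.9 CPM in ox-LDL libraries, a log2 fold change of 2.35 ± 0.36 (SE) with an adjusted p of 6.66e-04 by edgeR's quasi-likelihood test with Benjamini-Hochberg adjustment. Among genes called higher, Il4ra ranked 489 of 1189 by size of the fold change. The call held in 24 of 25 alternative analyses and was lost (adjusted p = 0.0163) with limma on log2(FPKM + 1) without a filter.

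Genes of the IL-4 and IL-13 receptor pathway were called higher or did not pass. Of 14 listed genes, 11 were tested, 4 rose (Il4ra among them) and none fell, beside 9.4% and 5.35% of all genes tested. Their median log2 fold change was 0.78. The partner chains of Il4ra were called higher too. Il13ra1, which completes the type II receptor, had 30.4 to 36.8 CPM in control libraries and 63.0 to 127 CPM in treated ones (log2 fold change 1.26 ± 0.21). Il2rg, the common gamma chain, had 58.3 to 114 CPM in control libraries and 144 to 418 CPM in treated ones (log2 fold change 1.57 ± 0.30). The call of Il13ra1 was lost in 3 of 25 alternatives, the fits of limma on FPKM, with adjusted p-values up to 0.0257, and that of Il2rg in 4, those and library size alone, with values up to 0.0690. Socs1, a feedback inhibitor of JAK kinases that interferons and LPS also induce, rose from 0.628 ± 0.493 to 22.2 ± 24.3 CPM (log2 fold change 5.12 ± 0.80). The ligands were at the limit of detection and not tested, and neither Il4 nor Il13 reached 3 counts in any library.

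Downstream of the receptor, the kinases and the factor gave values that did not pass the test. Jak1 had a log2 fold change of 0.81 ± 0.25 (adjusted p = 0.0298) and Jak3 one of 0.78 ± 0.26 (adjusted p = 0.0462), by edgeR's quasi-likelihood test with Benjamini-Hochberg adjustment. Stat6, the factor that carries the signal to the nucleus, had 88.6, 117, 115, 105 and 167 CPM in control libraries and 115, 68.4, 132, 133 and 182 CPM in ox-LDL libraries. The groups overlapped, and the log2 fold change was 0.09 ± 0.26 (adjusted p = 0.838). Its sign changed with the scaling, to -0.06 with upper-quartile or library-size scaling.

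**Figure D2:**
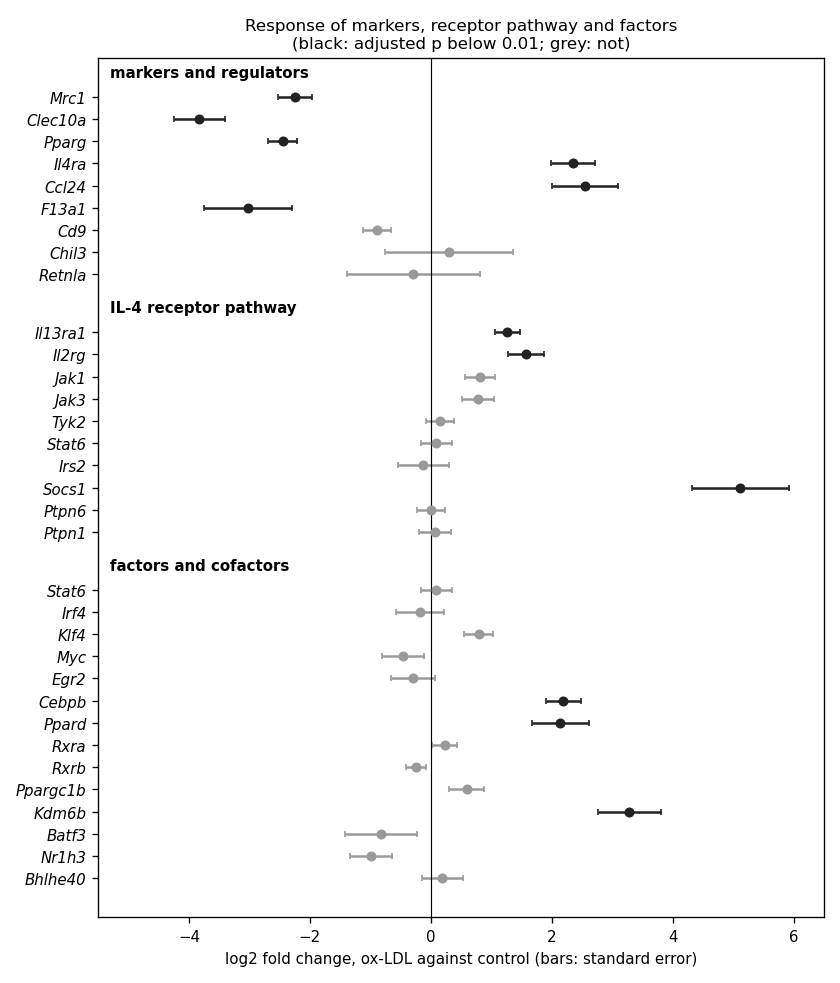
Fitted log2 fold change (ox-LDL against control, horizontal axis) with its standard error for the 9 markers tested and for the tested genes of the receptor pathway and of the factor list that are not markers. Black points have an adjusted p below 0.01 and grey points do not. The receptor chains Il4ra, Il13ra1 and Il2rg lie to the right, Stat6 sits at 0.09, and Pparg lies to the left.

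Pparg (chr6:115311239-115440419, + strand) encodes PPAR-gamma, a lipid-activated nuclear receptor that acts with STAT6. Its levels were 112, 95.9, 77.6, 137 and 124 CPM in control libraries and 21.2, 29.0, 19.7, 16.0 and 14.1 CPM in ox-LDL libraries. The lowest control library held more than the highest ox-LDL library by a wide margin, and the spread within groups was small (coefficient of variation 21.4% and 28.9%). The mean fell from 109 ± 23.4 to 20.01 ± 5.78 CPM, with a log2 fold change of -2.45 ± 0.24 and an adjusted p of 3.66e-05 by edgeR's quasi-likelihood test with Benjamini-Hochberg adjustment. By p-value Pparg ranked 15 among the 677 genes called lower, and the call held in all 25 alternatives.

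Most of the wider list of factors and cofactors of alternative activation was not called. All 15 genes were tested, and 3 rose and 1 fell (Pparg), beside 9.4% and 5.35% of all genes tested. Their median log2 fold change was 0.09, beside 0.10 over all genes tested. Cebpb, a factor that also serves the LPS response, rose from 57.7 ± 11.7 to 264 ± 102 CPM (log2 fold change 2.19 ± 0.30). Kdm6b, a histone demethylase induced by both IL-4 and LPS, rose from 1.303 ± 1.08 to 12.8 ± 6.31 CPM (log2 fold change 3.28 ± 0.52). Ppard, the sister receptor of Pparg, had a log2 fold change of 2.14 ± 0.47 and passed, although its groups overlapped through ox-LDL replicate 2 (5.14 CPM) and the call was lost in 15 alternatives.

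Other factors tied to IL-4 did not pass. Klf4, which cooperates with STAT6, was higher in every ox-LDL library (3.76 to 8.64 CPM in control, 9.001 to 13.7 CPM in ox-LDL), with a log2 fold change of 0.79 ± 0.23 that did not pass (adjusted p = 0.0269). Irf4, Egr2 and Rxra, the last a partner of PPAR-gamma, overlapped between groups. Their log2 fold changes were -0.18 ± 0.40, -0.30 ± 0.37 and 0.23 ± 0.20. None of the 3 passed by edgeR's quasi-likelihood test with Benjamini-Hochberg adjustment, and the adjusted p-values were 0.785, 0.603 and 0.441.

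Genes that PPAR factors switch on did not share one direction. Of 14 tested from 15 listed, 3 rose and 1 fell, beside 9.4% and 5.35% of all genes tested. Fold changes were positive for 7 and negative for 7, with a median log2 fold change of 0.28. The ox-LDL receptor Olr1 rose from 1.10 ± 0.416 to 62.1 ± 45.1 CPM (log2 fold change 5.81 ± 0.62). The fatty acid oxidation gene Acadl rose from 109 ± 9.25 to 212 ± 25.8 CPM (0.97 ± 0.17), and Acaa2, of the same pathway, fell from 67.1 ± 8.17 to 33.3 ± 10.3 CPM (-1.01 ± 0.22). The lipid droplet gene Hilpda, also induced by hypoxia, rose with overlapping groups (82.2 CPM in ox-LDL replicate 1 against 94.4 CPM in control replicate 5). Of 25 alternatives, the call of Acaa2 was lost in 9, among them leaving out control replicate 1, 2, 4 or 5 or ox-LDL replicate 3, 4 or 5, with adjusted p-values up to 0.0164. The call of Hilpda was lost in 12, among them leaving out any 1 control library or ox-LDL replicate 5, and that of Acadl in 5, the latter with no single library left out. Over the alternatives with the same threshold the list held 1 to 6 genes called higher and 0 to 3 called lower.

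Mrc1 and Clec10a, both C-type lectins of the cell surface, fell. Mrc1 (chr2:14151041-14253684, + strand), the mannose receptor that takes up glycoproteins, had 53.3, 73.2, 75.2, 45.1 and 40.3 CPM in control libraries and 11.2, 9.16, 17.0, 15.7 and 7.35 CPM in ox-LDL libraries. The groups were well apart, with 40.3 CPM as the lowest control and 17.0 CPM as the highest ox-LDL value. The mean fell from 57.4 ± 16.1 to 12.1 ± 4.17 CPM, with a log2 fold change of -2.24 ± 0.28 and an adjusted p of 1.69e-04 by edgeR's quasi-likelihood test with Benjamini-Hochberg adjustment. The call held in all 25 alternatives.

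Clec10a (chr11:69980125-69984336, + strand) encodes a lectin that binds galactose and N-acetylgalactosamine. It had 5.37, 5.91, 3.34, 8.40 and 9.25 CPM in control libraries and 0.826, 0.257, 0.195, 0.431 and 0.478 CPM in ox-LDL libraries. No ox-LDL library reached 20 counts, against 77.9 to 213 counts in control libraries. The log2 fold change was -3.83 ± 0.43 with an adjusted p of 8.10e-05 by edgeR's quasi-likelihood test with Benjamini-Hochberg adjustment, held in all 24 alternatives. By size it ranked 43 among the 677 genes called lower.

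Mgl2 (chr11:69943831-69951052, + strand) encodes a second lectin of the same family and ends 29073 bases before Clec10a begins. Its estimated counts were 22, 12.4, 2.73, 21.4 and 3.32 in control libraries and 2, 2, 1, 3 and 0 in ox-LDL libraries. How non-whole counts arose is not stated in the sources used here, so the level is uncertain. Groups overlapped through ox-LDL replicates 2 and 4 (0.171 and 0.144 CPM) and control replicates 3 and 5 (0.128 and 0.130 CPM). The exact permutation test (two-sided) gave p = 0.0476, and edgeR's quasi-likelihood test without a filter gave a log2 fold change of -2.79 ± 0.77 with an adjusted p of 0.0142 after Benjamini-Hochberg adjustment, so Mgl2 was not called.

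Most of the tested relatives of the 10 genes were not called. Of 28 listed relatives, 14 were tested, 4 rose and 1 fell, beside 9.4% and 5.35% of all genes tested. Clec4n, the lectin Dectin-2, rose from 6.13 to 13.3 CPM in control libraries to 82.5 to 112 CPM in ox-LDL libraries (log2 fold change 3.42 ± 0.23), and Ly75, an endocytic receptor of the mannose receptor family, rose from 11.5 ± 3.64 to 88.0 ± 14.7 CPM (2.93 ± 0.25). Clec4a2, an inhibitory lectin, fell from 205 ± 91.8 to 21.9 ± 12.9 CPM (-3.23 ± 0.47). Cd82, a tetraspanin like Cd9, rose (0.95 ± 0.16), and Tgm2, a transglutaminase like F13a1, rose from 42.0 ± 33.3 to 423 ± 357 CPM (3.33 ± 0.63). The call of Cd82 was lost in 4 of 25 alternatives and that of Tgm2 in 2, none of them with a single library left out.

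Among the secreted products, Ccl24 (chr5:136045807-136048913, - strand), a chemokine that draws eosinophils, had 0.443, 0.257, 0.257, 1.03 and 0.565 CPM in control libraries and 4.04, 5.91, 1.61, 1.10 and 2.45 CPM in ox-LDL libraries. Groups did not overlap, but only narrowly, as ox-LDL replicate 4 (23 counts) lay just above control replicate 4 (20 counts). Its log2 fold change was 2.55 ± 0.55 with an adjusted p of 0.00473 by edgeR's quasi-likelihood test with Benjamini-Hochberg adjustment. The call was lost without control replicate 1, 2, 3 or 5 or ox-LDL replicate 1 or 5, with adjusted p-values up to 0.0153, and it held in 14 of 24 alternatives. Eosinophil markers (6 genes, none at 0 in every library, led by Siglecf) summed to 3.35 to 8.84 CPM in control libraries and 0.470 to 1.95 CPM in treated ones. Prg2, Ear1 and Il5ra of this list held at most 2 counts in any library. The part of eosinophils in the result was not tested.

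F13a1 (chr13:36959047-37142113, - strand), the A chain of coagulation factor XIII, had 7.86, 14.9, 8.94, 12.5 and 17.7 CPM in control libraries and 0.826, 1.03, 0.146, 0.335 and 5.38 CPM in ox-LDL libraries. Of the ox-LDL libraries, 4 held 3 to 19 counts, whereas ox-LDL replicate 5 held 90. This gave a log2 fold change of -3.02 ± 0.73 with an adjusted p of 0.00964 by edgeR's quasi-likelihood test with Benjamini-Hochberg adjustment, at rank 673 of 677 by p-value. Without ox-LDL replicate 5 the log2 fold change was -4.46 with an adjusted p of 2.46e-04, and without any other single library the call was lost (adjusted p of 0.0134 to 0.0224). F13a1 is also made by platelets and monocytes. Platelet markers (9 genes, Gp9 at 0 in every library) summed to 36.2 to 84.5 CPM in control libraries and 70.0 to 354 CPM in treated ones. Most of each sum was Pf4, with 345 CPM in ox-LDL replicate 2, where the sum was highest. Ppbp, Gp1bb, Itga2b, Treml1 and Tubb1 of this list held at most 11 counts in any library. The part of platelets and monocytes in the result was not tested.

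Chil3 (chr3:105950472-106022425, - strand), the chitinase-like protein Ym1, had 13.3, 32.0, 16.8, 30.4 and 210 CPM in control libraries and 6.22, 46.9, 13.8, 12.5 and 293 CPM in ox-LDL libraries. Replicate 5 was far above the rest in both groups, and the other 4 libraries of each group overlapped. The log2 fold change was 0.30 ± 1.06 with an adjusted p of 0.869 by edgeR's quasi-likelihood test with Benjamini-Hochberg adjustment. Its sign depended on replicate 5, at 1.69 without the control library, -1.57 without the ox-LDL library and -0.30 without both, and none of these passed. Reads of Chil3 and its near copy Chil4, which overlaps it in the annotation of mm9, could be split in counting, although Chil4 held at most 1 count in any library.

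The monocyte marker Ly6c2 was highest in the same libraries as Chil3. Its levels were 0.111, 0.342, 0.214, 0.0515 and 6.30 CPM in control libraries and 3.87, 10.2, 0.293, 0.287 and 47.6 CPM in ox-LDL libraries. The monocyte list (9 genes besides Chil3, none at 0 in every library) summed to 13.7 to 26.4 CPM in control libraries and to 44.8 to 132 CPM in treated ones. Without Ly6c2 itself, the other 8 genes summed to 19.1 CPM in control replicate 5 and 19.2 CPM in control replicate 3. In treated libraries they summed to 92.6 CPM in ox-LDL replicate 5 and 83.3 CPM in ox-LDL replicate 1. By this sum, replicate 5 did not stand clear of the others in either group. Hp made up most of the sum in every treated library, with or without Ly6c2, and was itself called higher (log2 fold change 3.03 ± 0.39). The treated sums thus largely give the level of a single gene. Ccr2, the chemokine receptor of inflammatory monocytes, was called lower, from 2.10 to 5.82 CPM in control libraries to at most 0.478 CPM in treated ones. The part of such cells in the level of Chil3 was not tested.

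Retnla (chr16:48842665-48844574, + strand), the resistin-like protein Fizz1 whose promoter holds the STAT6-type letters shown above, had 0.664, 0.514, 0.428, 10.4 and 1.35 CPM in control libraries and 0.435, 8.99, 0.390, 0.526 and 0.956 CPM in ox-LDL libraries. A single library per group stood apart, control replicate 4 with 201 counts and ox-LDL replicate 2 with 105 counts, and the other 8 held 8 to 31 counts. The difference, a log2 fold change of -0.29 ± 1.10, had an adjusted p of 0.880 by edgeR's quasi-likelihood test with Benjamini-Hochberg adjustment. It was 1.55 without control replicate 4 and -2.26 without ox-LDL replicate 2, and neither passed. Both libraries were among those with high levels of short genes, and Retnla is short (463 bases from its counts and FPKM). Genes under 500 bases lay above their group mean on the log2 scale, by a median of 0.34 in the control library and of 1.76 in the ox-LDL library. Control replicate 1 lay further above its group (0.449) than control replicate 4, with Retnla at 0.664 CPM. Markers of large resident peritoneal macrophages (10 genes, none at 0 in every library) summed to 670 CPM in control replicate 4 and 4379 CPM in ox-LDL replicate 2, the highest of each group, and most of either sum was Saa3, an acute phase gene. Without Saa3 the other 9 genes summed to 87.8 CPM in control replicate 4 against 24.8 to 42.3 CPM in the other control libraries, and to 52.8 CPM in ox-LDL replicate 2 against 24.8 to 37.1 CPM in the other treated ones. Gata6, the factor that defines these cells, had 1.24 CPM in control replicate 4, within the range of the other control libraries, and 0.343 CPM (4 counts) in ox-LDL replicate 2, its lowest level in any library. The part of gene length and of such cells in the level of Retnla was not tested.

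**Figure D3:**
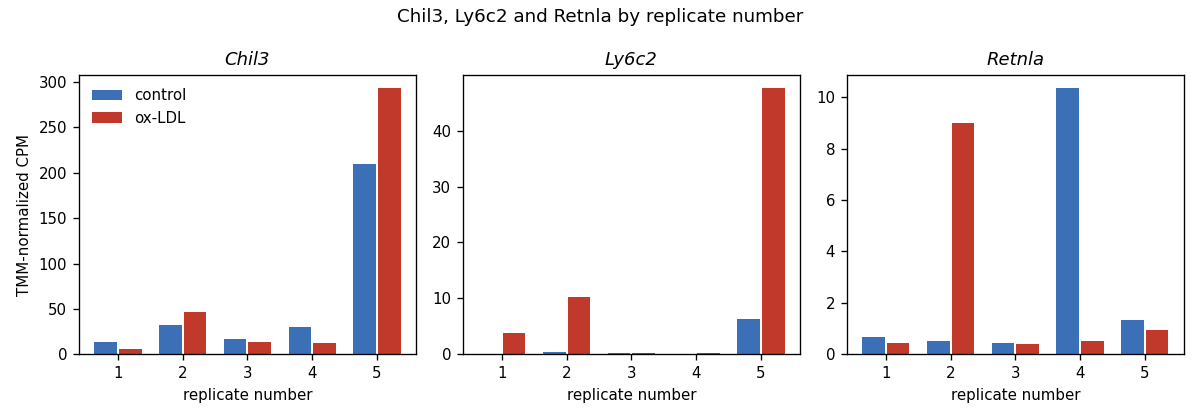
TMM-normalized CPM (bars from 0, one scale per gene) of Chil3, the monocyte marker Ly6c2 and Retnla in control (blue) and ox-LDL (red) libraries by replicate number. Chil3 and Ly6c2 are highest in replicate 5 of both groups, and Retnla is highest in control replicate 4 and ox-LDL replicate 2.

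Cd9 (chr6:125410284-125444809, - strand), a tetraspanin of the cell surface, was the most abundant of the 10. It had 1234, 990, 992, 1172 and 1077 CPM in control libraries and 420, 784, 618, 546 and 583 CPM in ox-LDL libraries. Groups did not overlap, and the spread in control libraries was the smallest of the 10 genes (coefficient of variation 9.93%). The log2 fold change of -0.89 ± 0.23 had an adjusted p of 0.0123 by edgeR's quasi-likelihood test with Benjamini-Hochberg adjustment and was not called. It passed in 10 of 25 alternatives, among them DESeq2, library-size scaling, each fit of FPKM and the fit without ox-LDL replicate 2. Exons of Cd9 overlap those of Gm16749 on the other strand, and the use of strand in counting is not stated.

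Per gene length, the 10 genes spanned over 3 orders of magnitude. In control libraries the median FPKM fell in the order Cd9 (1078), Pparg (61.2), Chil3 (21.2), Mrc1 (9.38), Clec10a (4.96), Il4ra (4.28), F13a1 (3.27), Retnla (1.27), Mgl2 (0.45) and Ccl24 (0.39). Ranges of neighbours in this order overlapped except for Cd9 and Pparg, Mrc1 and Clec10a, and Retnla and Mgl2. In ox-LDL libraries the median FPKM fell in the order Cd9 (473), Il4ra (21.8), Chil3 (10.5), Pparg (9.62), Mrc1 (2.58), Ccl24 (2.47), Retnla (1.22), Clec10a (0.29), F13a1 (0.16) and Mgl2 (0.07). There, neighbours without overlap were Cd9 and Il4ra, Pparg and Mrc1, and Retnla and Clec10a. Il4ra thus stood below Mrc1 in every control library and above it in every ox-LDL library.

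**Figure D4:**
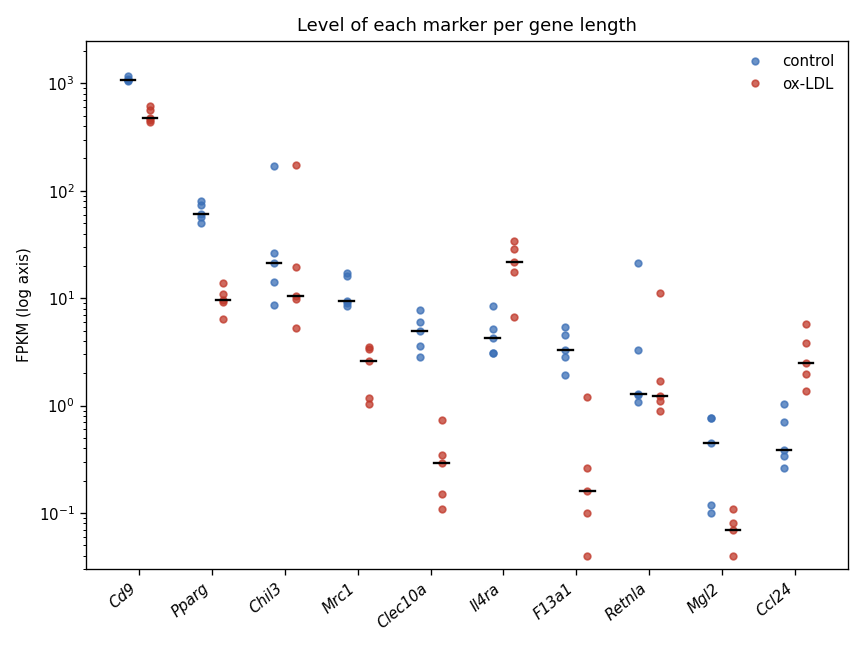
FPKM (log axis) of the 10 genes in each control (blue) and ox-LDL (red) library, ordered by the control median, with medians as black dashes. The Mgl2 value of 0 in ox-LDL replicate 5 cannot be drawn on a log axis. Cd9 stays highest in both groups, and Il4ra moves from a median of 4.28 to one of 21.8.

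Further genes that IL-4 induces were compared with the markers. Of 29 listed, 28 were found and 20 tested, of which 8 rose and none fell, beside 9.4% and 5.35% of all genes tested. Their median log2 fold change was 1.70. The median changed sign with limma on log2(FPKM + 1) (-0.12), which tests fewer low genes and does not use TMM. The cause was not tested. Several of the listed genes also answer to LPS or other cytokines. Slc7a2, an arginine transporter, rose from 4.56 ± 0.569 to 201 ± 135 CPM (log2 fold change 5.46 ± 0.53), and the chemokine Ccl2 rose from 23.5 ± 9.89 to 214 ± 185 CPM (3.18 ± 0.51). The cytokine feedback genes Socs2 (3.15 ± 0.51) and Cish rose as well, Cish from at most 3 counts in any control library to 3.57 to 9.14 CPM. Ccl22, a chemokine for T cells, rose from 1.38 ± 0.351 to 26.1 ± 37.0 CPM (4.23 ± 0.83), with 91.6 CPM in ox-LDL replicate 5, and its call was lost in 7 of 25 alternatives, among them leaving out control replicate 1 or 4. Over the alternatives with the same threshold, 4 to 10 genes of the list were called higher and at most 1 lower.

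Arg1, the arginase that competes with nitric oxide synthase, varied widely between libraries. It had 33.6, 9.07, 14.3, 25.3 and 14.2 CPM in control libraries and 82.6, 410, 13.2, 15.5 and 647 CPM in ox-LDL libraries. Of the ox-LDL libraries, 3 lay above every control library and the other two lay within the control range. Arg1 had a log2 fold change of 3.60 ± 0.99 with an adjusted p of 0.0189 by edgeR's quasi-likelihood test with Benjamini-Hochberg adjustment, and it was not called. Ccl17, untested, held at most 2 counts in control and 38 in ox-LDL libraries. Retnlg, a relative of Retnla that is also in the neutrophil list, held at most 41 and 27, both in replicate 5.

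Markers of tissue macrophages and of macrophages exposed to IL-10 completed the comparison. Of 17 listed, 16 were tested, 2 rose and 2 fell, beside 9.4% and 5.35% of all genes tested. Their median log2 fold change was -0.40. The scavenger receptor Marco rose from 5.01 ± 5.50 to 87.0 ± 56.2 CPM (4.12 ± 0.72), and the phosphatidylserine receptor Timd4 from 0.142 ± 0.0998 to 1.37 ± 0.594 CPM (3.22 ± 0.57). The selenium carrier Selenop fell from 1039 ± 670 to 136 ± 96.7 CPM (-2.93 ± 0.60). The hemoglobin scavenger receptor Cd163 fell from 0.513 to 1.39 CPM in control libraries to at most 2 counts in any ox-LDL library. The call of Selenop was lost in 6 of 25 alternatives, among them leaving out control replicate 1 or 4 or ox-LDL replicate 3 or 5, with adjusted p-values up to 0.0158. Marco, Timd4 and Cd163 each lost the call in 1 alternative, and over the alternatives with the same threshold the list held 1 to 2 genes called higher and 1 to 3 called lower.

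**Figure D5:**
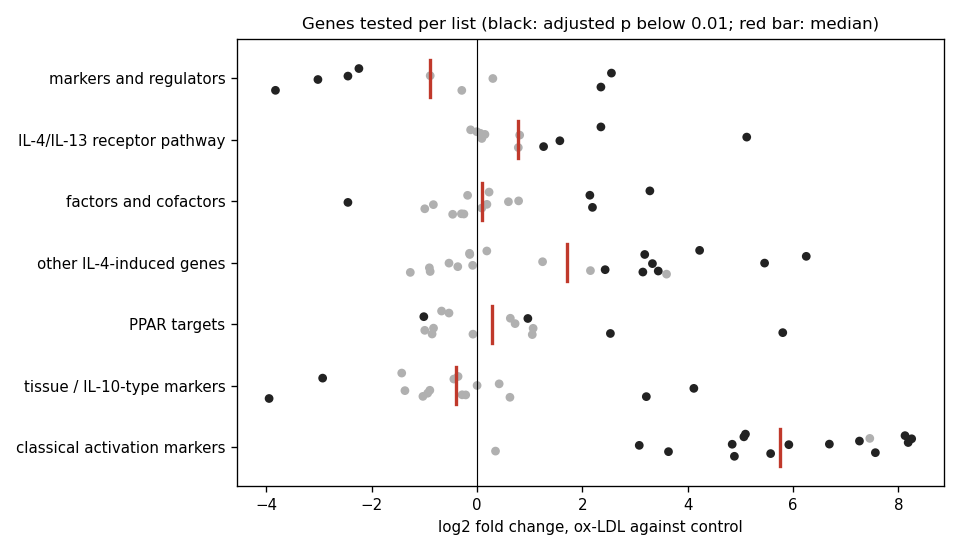
Fitted log2 fold change (ox-LDL against control) of each gene tested in 7 lists, one row per list, with the list median as a red bar. Black points have an adjusted p below 0.01 and grey points do not. The median is -0.89 for the markers and regulators, 0.78 for the receptor pathway and 5.75 for classical activation markers.

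The genes whose profiles over the 10 libraries were most like those of the called markers were found by the root mean square difference of centred log2(TMM CPM + 1) values. Mrc1 was nearest to the sterol synthesis genes Sqle (0.22) and Acat2 (0.26). Pparg was nearest to Tnni2 (0.24) and Dppa3 (0.28), Clec10a to Nxpe4 (0.30) and Smpd3 (0.31), and Il4ra to the peptide transporter Tap2 (0.19) and to Fmnl2 (0.19). For Ccl24 these were Tppp3 (0.25) and the prostaglandin receptor Ptger2 (0.28), and for F13a1 they were Gm14548 (0.40) and Gm15448 (0.44). Such closeness largely restates the contrast of the groups, which all these genes share.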

How the data were processed

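Per the labels and the study's methods, alignment by the authors used HISAT2 2.0.5 and the mouse build mm9, followed by SAMtools 1.4 and StringTie 1.3.3.13. Gene-level estimated counts were deposited as one table, with 13.6% of values not whole, and neither the counting step nor any use of strand is stated. For each library, values of an unnamed unit were deposited as well, which behaved as FPKM, since the length implied by counts and values was constant per gene (median coefficient of variation 0.812% over 4059 genes). Here, estimated counts were rounded, 9788 circular RNA rows were left out, genes were filtered with filterByExpr by group, normalized by TMM and tested with edgeR 4.0.16 (R 4.3.3), robust quasi-likelihood test, with Benjamini-Hochberg adjustment over 12654 genes and a call at 0.01. The threshold follows the study's false discovery rate cutoff without its fold cutoff. The standard error is the size of the fold change over the square root of F. CPM are TMM-normalized for single genes and scaled by library size for sums over marker lists. Fold changes are log2, ox-LDL against control. Exact permutation tests (two-sided) used log2(TMM CPM + 1) and all 252 arrangements of the libraries. Gene positions are from the GENCODE annotation of mm9, and symbols from RefSeq (GRCm38.p6, names only). No pair of libraries was found to be a duplicate.

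Genes named were the 10 markers, up to 4 genes with the lowest adjusted p in each direction from each of 7 lists, 14 genes named whatever their value, the top genes of marker lists, and the 2 genes most like each called marker. The markers, lists and tests were chosen with earlier results of these data known, so no test over a list was made. A gene of the list of factors and cofactors is not reported here and was left out of that list. Alternatives were DESeq2 1.42.0, limma-voom and limma on log2(FPKM + pseudocount) (limma 3.58.1), other scalings, filters and rows, gene length, thresholds, the replicate number as a block and libraries left out. Leaving out both replicate 5 libraries was chosen after seeing the data. The procedures were also run on simulated counts. These held no gene length trend and no library set apart for single genes, so the simulation does not cover those features of the data. Intervals from counting are not given, since 5 libraries per group set the error.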

Additional observations from a re-analysis of the deposited data

Results flagged for a closer look

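In each group of 5 libraries, the levels of the 10 genes and the mean levels of the 7 other lists were searched for a highest or lowest library that stood far from the rest. A library was flagged where its gap to the next exceeded 0.71 of the range of its group. Of 34 groups searched, 6 held such a library. For independent groups of normally distributed values, chance gives about 1 in 20, or 1.7. The 10 genes were searched as CPM without logs and the groups share libraries, so the rate of chance flags here is not known. Chil3 stood apart in control replicate 5, at 210 CPM with 32.0 CPM in the next library, and in ox-LDL replicate 5, at 293 CPM with 46.9 CPM in the next. Retnla stood apart in control replicate 4, at 10.4 CPM with 1.35 CPM in the next library, and in ox-LDL replicate 2, at 8.99 CPM with 0.956 CPM in the next. F13a1 stood apart in ox-LDL replicate 5, at 5.38 CPM with 1.03 CPM in the next library. The mean log2(TMM CPM + 1) of the classical activation markers stood apart in control replicate 5, at 2.74 with 1.78 in the next control library. Replicate 5 thus accounts for 4 of the 6.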

How the results depend on the processing

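Mrc1, Pparg and Clec10a were called in every alternative run, at adjusted p-values up to 0.00255, 5.03e-04 and 7.60e-04, and Il4ra in all but limma on log2(FPKM + 1) without a filter (log2 fold change 1.87, adjusted p = 0.0163). Over all alternatives the median log2 fold change of all genes ran from -0.18 to 0.27, against which single values are to be read. The causes of the changes below were not tested, unless fewer genes or libraries are named. The log2 fold change of Chil3 turned to -0.35 with limma-voom, -0.14 with library size alone, -0.48 with limma on log2(FPKM + 1) with or without a filter, -0.52 with a pseudocount of 0.1 and -0.30 without both replicate 5 libraries, a choice made after seeing the data. It ran from -1.57 to 1.69 with 1 library left out, and that of Retnla from -2.26 to 1.55. DESeq2 gave no adjusted p for either. Ccl24 was no longer called with limma on log2(FPKM + 1) without a filter (1.32), without control replicate 5 and ox-LDL replicate 2 (2.19) or without both replicate 5 libraries (2.59), and had values of 2.13 to 2.96 with 1 library left out. F13a1 was lost without a filter on low counts (-3.07) and without control replicate 5 and ox-LDL replicate 2 (-2.78), and had values of -4.46 to -2.71 with 1 library left out. Cd9 was called with DESeq2 (-0.89), upper-quartile scaling (-1.04), limma-voom (-0.90), library size alone (-1.10), limma on FPKM (-1.11 in each of 3 fits), the gene length trend removed (-0.76) and without control replicate 5 and ox-LDL replicate 2 (-1.05), and had values of -1.05 to -0.79 with 1 library left out. Stat6 turned to -0.0615 with upper-quartile normalization, -0.0633 with library size alone, -0.136 with limma on log2(FPKM + 1) with or without a filter, -0.145 with a pseudocount of 0.1 and -0.0036 with the length trend removed. It ran from -0.0952 (without ox-LDL replicate 5) to 0.244 with 1 library left out, with -0.0064 without control replicate 1, and Rxra turned to -0.014 with limma on log2(FPKM + 0.1).

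Of the markers, 1 was called higher with at least 10 counts in every library (when 2 were called lower, since fewer were tested), without control replicate 5 and ox-LDL replicate 2, and without both replicate 5 libraries. With limma on log2(FPKM + 1) without a filter, 0 were called higher, where Il4ra and Ccl24 had the adjusted p-values 0.0163 and 0.0138. With 1 library left out, 1 to 2 were called higher and 3 to 4 lower. Of all genes, 704 rose with library size alone, 555 and 543 with limma on FPKM at pseudocounts of 1 and 0.1, 472 with no filter and 1843 without control replicate 5 and ox-LDL replicate 2. DESeq2 called 1244 lower, the fit without the length trend 1224 and the fit without those 2 libraries 1483. At an adjusted p below 0.05, 2045 rose and 1320 fell, and with an absolute log2 fold change above 2 as well, 605 and 244. With 1 library left out, 826 to 1755 rose and 436 to 1502 fell, the lowest without control replicate 4 (436) or ox-LDL replicate 3 (437) and the highest without ox-LDL replicate 2 (1502).

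Median log2 fold changes of the lists moved with limma on FPKM, which uses another filter and no TMM. Which of these moved the medians was not tested. At pseudocounts of 1 and 0.1 they were -0.26 and -0.29 for factors and cofactors, -0.12 and -0.14 for other IL-4-induced genes, -0.218 and -0.216 for PPAR targets, -0.67 and -0.72 for tissue markers, 4.17 and 4.99 for classical markers and 0.0245 and 0.0245 for relatives of the markers. Without a filter on FPKM they were 0.38 for the receptor pathway, 0.60 for other IL-4-induced genes, -0.218 for PPAR targets, 4.13 for classical markers and 0.18 for relatives. Factors and cofactors had a median of 0.38 without control replicate 5 and ox-LDL replicate 2. Other IL-4-induced genes had medians of 1.29 with limma-voom, 0.70 with at least 10 counts in every library and 1.04 without both replicate 5 libraries. PPAR targets had -0.0095 with limma-voom, -0.0134 with library size alone and 0.0557 with the length trend removed. Classical markers had 4.96 and relatives 0.13 with at least 10 counts in every library, and relatives had 0.44 with upper-quartile normalization, 0.38 with library size alone and 0.47 without both replicate 5 libraries. With 1 library left out the medians were -0.0952 to 0.244 for factors and cofactors, 1.16 to 1.86 for other IL-4-induced genes, 0.0473 to 0.386 for PPAR targets, -0.68 to -0.27 for tissue markers, 4.62 to 6.21 for classical markers and 0.41 to 0.69 for relatives. For the genes named from the lists besides the 10 markers, 790 of the values under alternatives kept their direction and call, 72 lost the call, 9 gained it and 9 changed sign. Many of these genes were named for a low adjusted p, so the counts do not describe the lists as a whole.

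Whether the replicate numbers pair the libraries is not stated. Correlations of same-numbered libraries about their group means were -0.0393, -0.419, 0.512, -0.378 and 0.424. They cannot settle pairing, since libraries with different numbers correlated as well, such as control replicate 4 and ox-LDL replicate 2 (0.598). With the replicate block, 1 marker was called higher, as Ccl24 had a log2 fold change of 2.47 with an adjusted p of 0.0199, Chil3 turned to -0.32, and the medians were 1.34 for other IL-4-induced genes and 0.0083 for PPAR targets. Depth limited Mgl2, Ccl24, Clec10a in treated cells and the ligands Il4 and Il13, which held few counts.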

Other observations

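The profile nearest to that of Retnla over the 10 libraries was Ms4a8a, a membrane protein of macrophages, with a root mean square difference of 0.52 on the centred log2(TMM CPM + 1) scale against 1.11 for the profile of Retnla itself. It was chosen after its values were seen. Ms4a8a had 74.0 CPM in control replicate 4 and 83.6 CPM in ox-LDL replicate 2, the libraries where Retnla was highest, against 14.4 to 28.0 CPM in the other control libraries and 13.4 to 26.2 CPM in the other ox-LDL libraries. Vsig4, a complement receptor of resident macrophages, was also highest in these libraries, at 22.4 CPM in control replicate 4 and 7.11 CPM in ox-LDL replicate 2.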
